A study of Mus musculus with 3 samples.

Results

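Among the 2127 CLK and BMAL1 binding sites of the mouse liver, 28 were assigned to 25 genes of kinases, phosphatases and their regulatory subunits. The members were chosen by gene name alone: every peak whose assigned gene belongs to the MAP kinase cascade (Mapk, Map2k, Map3k, Map4k), the Prk, Csnk, Camk, Cdk, Dyrk, Gsk3 or Pik3 kinases, or the Dusp, Ppp, Ptpn or Ptpr phosphatases, or is Wee1. The rule itself used no measured value, but it took called peaks only and was set with earlier results of these data known. Liver chromatin came from adult C57BL/6 mice of 3 to 6 months on a cycle of 12 h light and 12 h dark, at ZT8, which is 8 h into the light phase. Cross-linked chromatin of the same extract was immunoprecipitated with an antibody against CLK or against BMAL1, or kept as Input without antibody. Neither a genotype nor a treatment was varied, and the labels give 1 library for each of the 3, so no value below has a replicate and no difference between animals was tested. Counting tags at one position once, the libraries held 33057959 (CLK), 25217144 (BMAL1) and 18206506 (Input) tags. Whole liver holds several cell types, which these libraries do not separate.

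CLK and BMAL1 are transcription factors that bind DNA as a pair, classically at the e-box CACGTG, and drive the genes of the circadian clock, among them those of their own repressors. Phosphorylation sets the pace of that loop: casein kinases and other kinases mark the clock repressors for destruction, and phosphatases oppose them. Kinases and phosphatases also carry signals out of the clock, to the cell cycle through WEE1 and the cyclin-dependent kinases, to glycogen through protein phosphatase 1, and to growth and stress responses through the MAP kinases.

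The DNA under the members with an e-box within 100 bp of the summit (the position of highest tag density) is shown first, since these letters are what the comparison of motifs below rests on. All sequences are on the plus strand of the mouse assembly NCBIM37, 5′ to 3′, and capitals mark the e-box or, where stated, its variant with the last base changed, CACGTT. From the other strand that variant reads AACGTG. The 3 e-boxes of Cdk4 furthest from its start site lie within chr10:126500409-126500508, and the remaining one lies at chr10:126500568-126500597, a stretch whose end overlaps an annotated UTR. The Ppp1r3c window is chr19:36806041-36806079, where the second capital run is CACGTT, 7 bp after the e-box. Wee1 has its e-box at chr7:117264904-117264933 and a CACGTT, read here as AACGTG, at chr7:117265118-117265147. The Dusp7 site is at chr9:106270255-106270284, that of Dusp12 at chr1:172815172-172815201 and that of Ppp4r2 at chr6:100772697-100772726. Ppp1r13b has a site in each of its peaks, at chr12:113080920-113080949 and chr12:113096354-113096383.
Cdk4, first 3 e-boxes: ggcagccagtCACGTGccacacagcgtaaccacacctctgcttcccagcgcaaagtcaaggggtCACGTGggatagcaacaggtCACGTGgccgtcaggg
Cdk4, e-box nearest the start site: aagggtgaagatCACGTGtccagaacgtcc
Ppp1r3c, e-box and CACGTT: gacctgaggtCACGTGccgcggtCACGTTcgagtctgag
Wee1, e-box: ctagcgcactctCACGTGtaagcgaacaaa
Wee1, CACGTT: ccgcgactatagAACGTGactggacacagc
Dusp7, e-box: caataggaaagtCACGTGgcgcttcactcc
Dusp12, e-box: accgcccccctgCACGTGgcactcaccagt
Ppp4r2, e-box: cacctctctgcaCACGTGttttccatgcaa
Ppp1r13b, stronger peak: tgcagggctgccCACGTGagcaggcacagc
Ppp1r13b, weaker peak: gacctgcattaaCACGTGaccagtacacac

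Most of the members were BMAL1 peaks without a CLK peak. Of the 28, 21 were BMAL1 only (75%, exact 95% Clopper-Pearson interval 55.1 to 89.3), beside 64.3% of all peaks. Only 5 were CLK only (17.9%, 6.06 to 36.9), beside 25.8% of all. The remaining pair, Ppp1r3c and Wee1, were CLK:BMAL1, which means that a CLK and a BMAL1 peak shared at least 1 bp (7.14%, 0.877 to 23.5), beside 9.92% of all. Each of these intervals contains the share over all peaks. They express the error of counting peaks alone: peaks of the same gene may not be independent, and no library was repeated.

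The 25 genes were 9.06% (5.95 to 13.1) of the 276 protein-coding genes of the annotation whose names match the rule, beside 6.70% of all 22238 protein-coding genes. Dual-specificity phosphatases, some of which remove phosphate from both tyrosine and threonine of MAP kinases, held 6 peaks at 5 of 24 annotated genes. Serine/threonine phosphatases and their subunits held 8 peaks at 6 of 62 genes. The cyclin-dependent kinases with Wee1 held 4 peaks at 4 of 27 genes. The MAP kinase cascade held 3 peaks at 3 of 45 genes, the tyrosine phosphatases 3 at 3 of 39, and the phosphoinositide 3-kinases 2 at 2 of 16. The casein kinases and the Prk kinases held 1 peak each, at 1 of 9 and 1 of 34 genes. No peak was assigned to any of the 13 genes whose names begin with Camk or of the 7 Dyrk and Gsk3 genes. All these counts go by the listed symbol. Each family is a set of matching names, which can include genes that encode no kinase or phosphatase. Mapk8, whose peak is listed under the older name jnk1, therefore counts here as a MAP kinase gene without a peak. Other peaks under older names, given below, were likewise not counted.

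**Figure D1:**
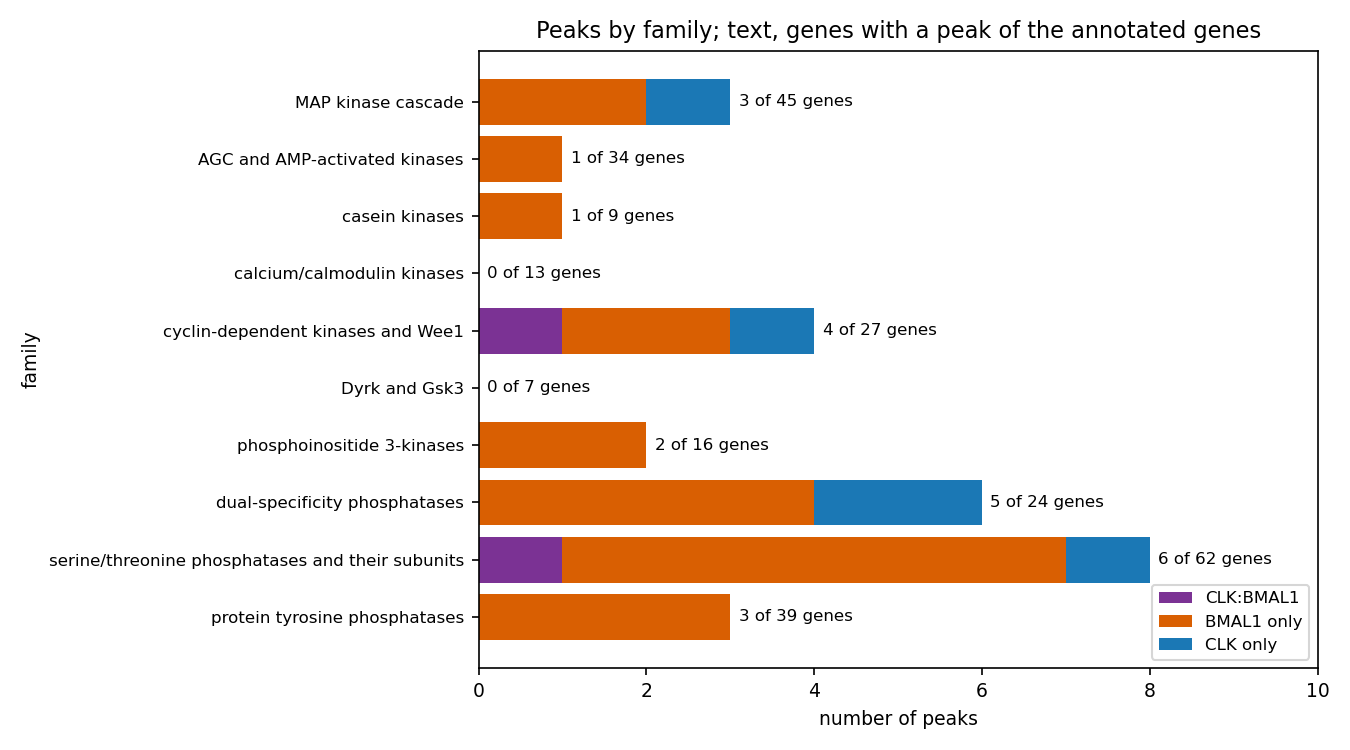
Number of peaks (x axis) assigned to each kinase or phosphatase family (y axis), coloured by class, with the genes that have a peak beside each bar. Serine/threonine phosphatases and their subunits hold the most peaks, 8 at 6 of their 62 annotated genes. BMAL1 only are 21 of the 28 peaks, beside 64.3% of all peaks.

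By median fold enrichment the members lay somewhat below both lists, and by median score close to them. MACS, the authors' peak caller, gives each peak a score, which is 10 times the negative log10 of its p-value and at least 50 by the calling cutoff, a fold enrichment of ChIP over the local Input, and an FDR in percent. In the BMAL1 list the 23 members had a median fold enrichment of 6.39 (range 4.10 to 9.75), beside 6.80 over all 1578 peaks, and the median of their percentiles in that list was 35.0. In the CLK list the 7 members had a median of 6.05 (4.38 to 7.08), beside 6.35 over all 759, with a median percentile of 39.5. Ranked by score instead, the median percentile was 48.2 in the BMAL1 list and 47.4 in the CLK list. Taking the BMAL1 list for BMAL1 only peaks and the CLK list for the others, 2 of 28 members reached a score of 100, beside 9.26% of all peaks. In the same lists the FDR was 5% or less for 9 of 28 (32.1%, 15.9 to 52.4), beside 34.0% of all. Many members lay close to the cutoff: 13 of 23 in the BMAL1 list had a score below 60 (all peaks, 51.5%), and 4 of 7 in the CLK list (all peaks, 52.6%).

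**Figure D2:**
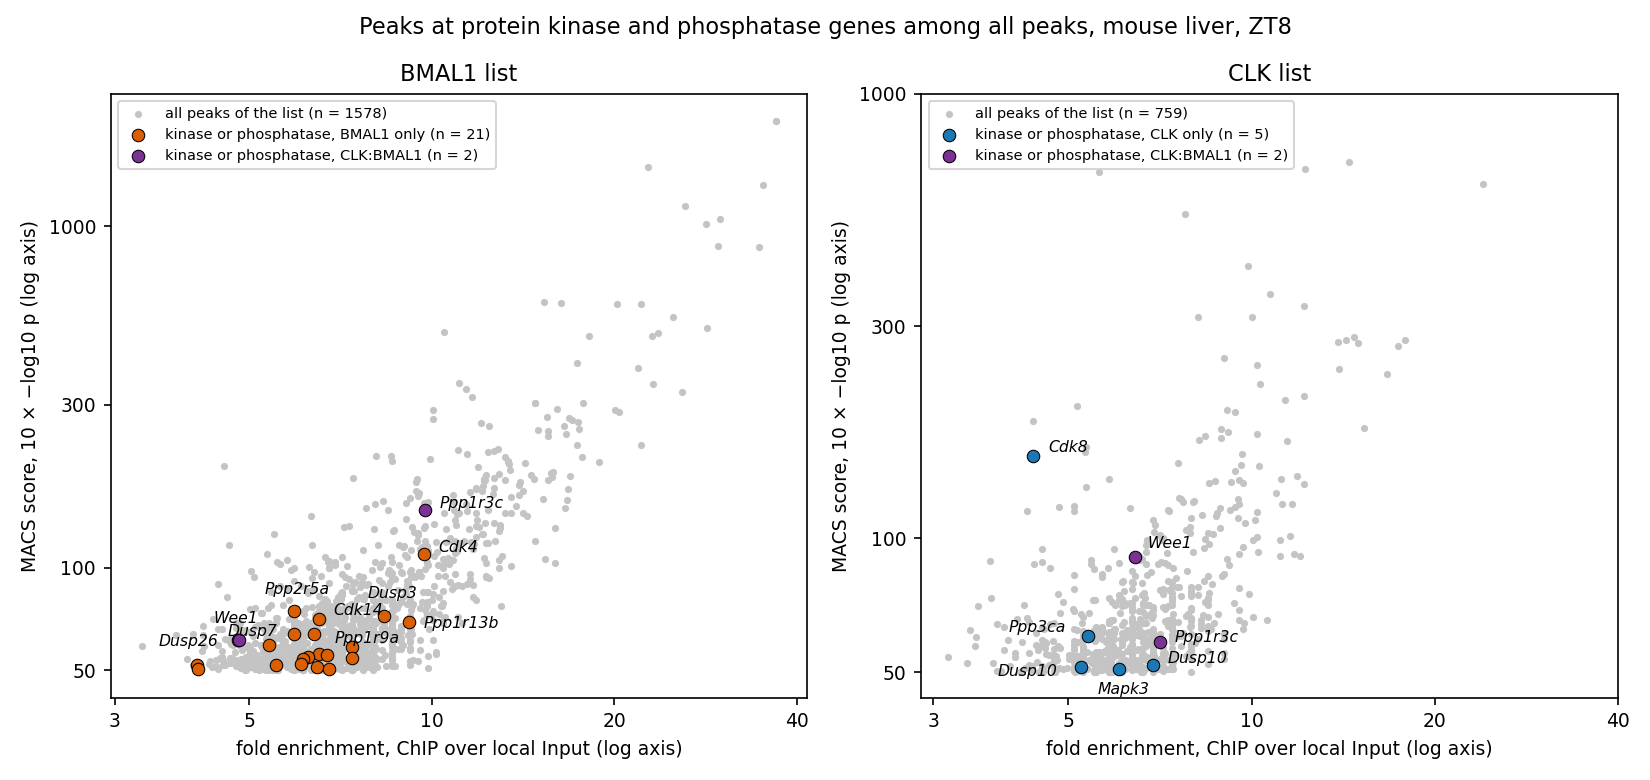
MACS score (y axis, log) against fold enrichment over the local Input (x axis, log) for every peak of the BMAL1 list (left) and the CLK list (right), with the kinase and phosphatase peaks coloured by class and the higher ones named. Ppp1r3c, at a BMAL1 score of 147, and Cdk4, at 109, stand above the other BMAL1 members, and Cdk8 pairs a CLK score of 153 with a fold enrichment of 4.38.

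Ppp1r3c had the highest BMAL1 score of the members. Its product, also called protein targeting to glycogen, brings protein phosphatase 1 to glycogen, where the phosphatase favours glycogen synthesis. The BMAL1 peak held 57 tags, with a score of 147, a fold enrichment of 9.75 and an FDR of 0.86%, and ranked 116 of 1578. The CLK peak, at chr19:36805812-36806274, was weaker within its list: it held 36 tags, with a score of 58.4, a fold enrichment of 7.08 and an FDR of 5.25%, and ranked 400 of 759. Scaled to each library's depth (tags per 1000000 tags), these are 2.26 for BMAL1 (exact Poisson interval 1.71 to 2.93) and 1.09 for CLK (0.763 to 1.51), over peaks of different width and with different antibodies. Poisson intervals express counting error alone, and amplified copies of a molecule are not independent. The summits lay 30 bp apart. The site is not at the promoter: the CLK summit fell 180 bp and the BMAL1 summit 150 bp beyond the 3′ end of the transcribed gene, 5051 bp from its start site, and the e-box 165 bp beyond that end. The e-box printed above lies 12.5 bp from the CLK summit and 17.5 bp from the BMAL1 summit. With CACGTT after a gap of 7 bp it makes the only tandem pair among the members, defined as an e-box and a second hexamer with at most 1 mismatch, 6 to 7 bp apart. Such a pair was found in 2.54% of all peaks.

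Wee1 was the other shared site. WEE1 is the tyrosine kinase that holds back entry into mitosis by phosphorylating the mitotic cyclin-dependent kinase, and its gene is a classical target of the clock in regenerating liver. Here the order of the lists was the opposite of that at Ppp1r3c. The CLK peak, at chr7:117264786-117265337, held 39 tags, with a score of 91.1, a fold enrichment of 6.43 and an FDR of 4.35%, and ranked 115 of 759. The BMAL1 peak held 25 tags, with a score of 61.5, a fold enrichment of 4.80 and an FDR of 4.94%, and ranked 724 of 1578. On the scale of tags per 1000000, CLK had 1.18 (0.839 to 1.61) and BMAL1 0.991 (0.642 to 1.46). The CLK peak centre lay 511 bp upstream of the start site. The summits lay 210 bp apart, where the median over the 211 shared peaks was 21 bp and only 14 shared peaks (6.64%) had a gap at least as wide. The e-box printed above was 10.5 bp from the BMAL1 summit and 220.5 bp from the CLK summit. The CACGTT variant, in contrast, lay 6.5 bp from the CLK summit. By the CLK summit Wee1 therefore counts as a site without an e-box, and by the BMAL1 summit as a site with one.

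Mapk8, the gene of the stress-activated kinase JNK1, is listed in the deposited table under its older name jnk1 and so falls outside the rule. It was looked for after the values were seen and is given here because it is a kinase with a shared site at its promoter. Its CLK peak, at chr14:34260400-34260809, held 29 tags, with a score of 91.3, a fold enrichment of 11.12 and an FDR of 4.42%. Its BMAL1 peak held 44 tags, with a score of 182, a fold enrichment of 14.74 and an FDR of 0%, and ranked 76 of 1578. Both fold enrichments exceeded those of Ppp1r3c and Wee1 in the same lists. The summits lay 48 bp apart, 1 e-box lay 21.5 bp from the CLK summit, and the peak centre lay 262 bp upstream of the start site. The site is at chr14:34260589-34260618, with the e-box in capitals.
Mapk8 (jnk1), e-box: ggtctgcgatggCACGTGgcggcgcgtggc

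**Figure D3:**
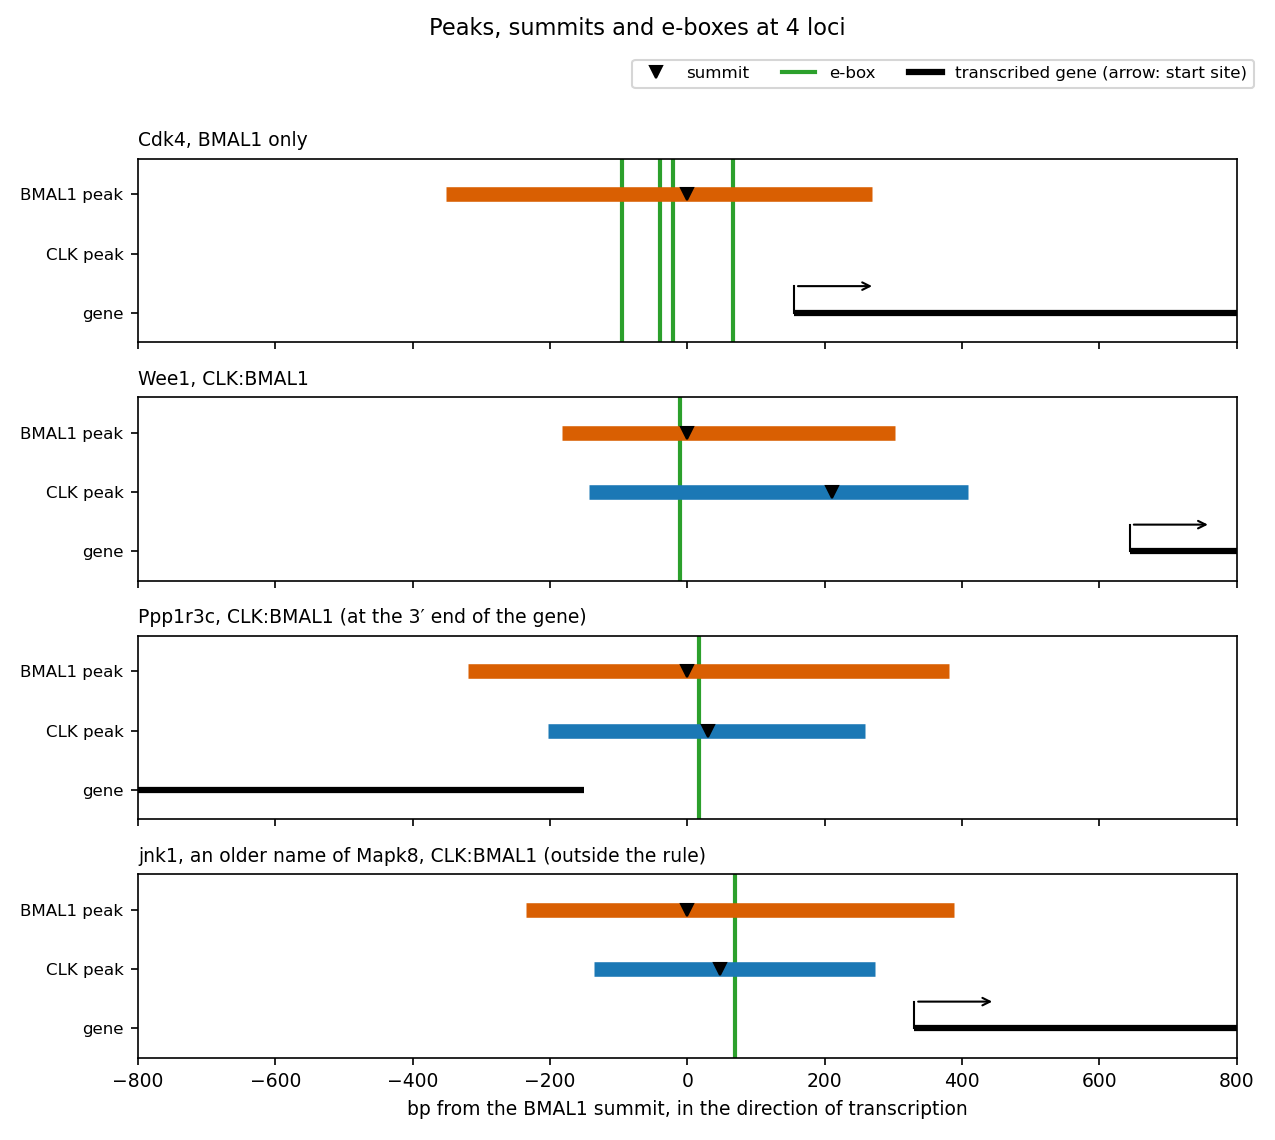
BMAL1 and CLK peaks (bars), their summits (triangles) and e-boxes (vertical lines) at Cdk4, Wee1, Ppp1r3c and jnk1 (Mapk8), in bp from the BMAL1 summit in the direction of transcription. Cdk4 has 4 e-boxes and no CLK peak, the summits at Wee1 lie 210 bp apart with the e-box at the BMAL1 one, and the Ppp1r3c site lies beyond the 3′ end of the gene.

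Among the cell cycle kinases, Cdk4 had the strongest BMAL1 only peak of the members. CDK4 pairs with D-type cyclins and phosphorylates the retinoblastoma protein as cells leave the first gap phase. The peak at chr10:126500164-126500785 held 37 tags (Poisson interval 26.1 to 51.0), with a score of 109, a fold enrichment of 9.69 and an FDR of 0.52%, and ranked 193 of 1578. Its centre lay 196 bp upstream of the start site of the table, and its summit 74 bp from the nearest start site of the annotation. All 4 e-boxes of the peak lay within 100 bp of the summit, at 94.5, 40.5 and 20.5 bp on one side and 66.5 bp on the other. They span 167 bp, and the closest pair is separated by 14 bp. Only 2 of the 2127 peaks (0.0940%) held 4 or more e-boxes in this window. The nearest peak of the CLK list lay 2062359 bp away.

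Cdk14, the gene of a kinase that binds the membrane-associated cyclin Y, had a BMAL1 only peak of 24 tags in an intron, 6429 bp downstream of its start site. Its score was 70.6, its fold enrichment 6.52 and its FDR 1.89%, and no e-box lay within 100 bp of the summit. Cdk8, the gene of the kinase of the Mediator complex that links transcription factors to RNA polymerase, was CLK only. The Cdk8 peak at chr5:147072379-147073132 held 266 tags (Poisson interval 235 to 300.0), and only 3 of the 759 CLK peaks held at least as many. That is 353 tags per kb of peak, beside a median of 61.7 over the CLK list. Its score of 153 ranked 39 of 759, yet its fold enrichment of 4.38 was among the lowest: 34 CLK peaks (4.48%), this one included, had a value as low. The FDR was 7.69%. Among the 94 CLK peaks that reached a score of 100, only 3 had a fold enrichment as low, Cdk8 included. The peak centre lay 29506 bp inside the gene, the summit was in an annotated microRNA gene, 23 bp from its start, and no e-box lay within 100 bp.

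By listed symbol, the 3 member peaks of the MAP kinase cascade were weak, with scores of 51.0 to 59.5. They lay 4987 to 694885 bp from the assigned start site. Stronger peaks at MAP kinase genes fall outside the rule. Summits lay 281 bp from the start site of Mapk8 (jnk1) and 123 bp from that of Mapk6, with BMAL1 scores of 182 and 168. Further peaks outside the rule, nearest to Map2k4 and Mapk10, lay 191341 and 95886 bp away (BMAL1 score 58.2, CLK score 60.7). Mapk3, the gene of the growth-factor-activated kinase ERK1, was CLK only, with 21 tags, a score of 51.0, a fold enrichment of 6.05 and an FDR of 5.75%. Its peak lay 4987 bp upstream of the start site, with no e-box but a CACGTT 51.5 bp from the summit. Map3k7, the gene of TAK1, which relays cytokine signals to JNK, was BMAL1 only, with 22 tags, a score of 59.5 and a fold enrichment of 5.38. At 694885 bp upstream, its peak was the furthest of all members from the start site it was assigned to.

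The dual-specificity phosphatases divided by class and by distance. Dusp3, Dusp7 and Dusp12 each had a BMAL1 only peak within 1000 bp of the start site, whereas the peaks of Dusp10 and Dusp26 lay over 100000 bp away. Dusp3, whose product acts on ERK and JNK, had 27 tags in an intron, 451 bp downstream of the start site. The score was 72.0, the fold enrichment 8.35 and the FDR 1.55%. It had no e-box but a CACGTT 45.5 bp from the summit. Dusp7, which encodes a cytoplasmic phosphatase of ERK, had 36 tags 669 bp upstream of its start site, with a score of 64.1, a fold enrichment of 5.92 and an FDR of 3.91%. Its e-box lay 40.5 bp from the summit. Dusp12, which encodes an atypical phosphatase with a zinc-binding domain, had 33 tags 422 bp downstream of the table's start site, and 88 bp from the nearest annotated one. Its score of 54.6 and FDR of 8.22% were closer to the cutoff, the fold enrichment was 6.24, and its e-box lay 36.5 bp from the summit.

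Dusp10, whose product acts on JNK and the other stress-activated MAP kinases, was assigned a pair of CLK only peaks, on either side of the gene and 481204 bp apart. The upstream peak, 258766 bp away, held 20 tags (score 52.0, fold enrichment 6.88, FDR 5.38%), and the downstream peak, 222813 bp away, held 21 (score 51.3, fold enrichment 5.24, FDR 5.61%). Both scores were close to the cutoff of 50, and neither peak had an e-box. Dusp26, the gene of a phosphatase known mostly from the nervous system, had a BMAL1 only peak of 25 tags 396995 bp upstream, with a score of 61.5, a fold enrichment of 4.78 and no e-box.

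Among the serine/threonine phosphatases, most members were regulatory subunits, which choose where the catalytic subunit acts. The share of such subunits among the 62 annotated genes of this family is not given here, so this describes the members only. Ppp1r13b, the gene of the apoptosis-stimulating p53-binding protein ASPP1, had 2 BMAL1 only peaks, both in introns, 14768 bp apart and each with an e-box. The stronger held 29 tags (score 69.4, fold enrichment 9.18, FDR 2.56%), 65305 bp from the table's start site but 2233 bp from a start site in the annotation. The weaker held 24 tags (score 51.8, fold enrichment 4.10, FDR 9.72%), 49993 bp from the table's start site and 13118 bp from one in the annotation. Their e-boxes lay 21.5 and 61.5 bp from the summits. These were the only members with a further peak of the table within 50000 bp.

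Ppp2r5a, the gene of a B56-type subunit that directs protein phosphatase 2A, had 33 tags 48591 bp upstream of its start site, with a score of 74.8, the highest among the BMAL1 only members after Cdk4. Its fold enrichment was 5.92, its FDR 1.44%, and it had no e-box. Ppp1r9a, the gene of the actin-binding protein neurabin, had 28 tags 6568 bp upstream of the table's start site, in an intron of the annotation (score 63.8, fold enrichment 6.39, FDR 3.85%) and no e-box. Ppp4r2, the gene of a subunit of protein phosphatase 4, had only 15 tags, the fewest of the members, 10902 bp upstream (score 54.5, fold enrichment 7.37, FDR 8.19%). Its e-box lay 31.5 bp from the summit.

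Ppp3ca encodes the catalytic subunit of calcineurin, the calcium-dependent phosphatase, and was the only member gene with a peak in each list at separate places. The BMAL1 only peak, in an intron 45590 bp downstream of the start site, held 19 tags (score 54.1, fold enrichment 6.14, FDR 8.40%). The CLK only peak, 91412 bp downstream of the start site of its table entry, held 23 tags (score 60.3, fold enrichment 5.39, FDR 5.08%). The peaks lay 277689 bp apart, and neither had an e-box. Ptpn1, the gene of PTP1B, which dephosphorylates the insulin receptor, had a BMAL1 only peak of 19 tags 20608 bp upstream (score 58.7, fold enrichment 7.37, FDR 5.97%), without an e-box.

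Csnk1g3, a casein kinase gene of the gamma type, had 21 tags in a BMAL1 only peak 178596 bp from its start site, with a score of 51.2, a fold enrichment of 6.46 and an FDR of 10.18%. The other 6 members, at Map2k6, Ptprb, Ptprf, Prkar2b, Pik3r1 and Pik3c3, were all BMAL1 only and weak. They held 17 to 33 tags, with scores of 50.5 to 55.8, fold enrichments of 4.11 to 6.76 and FDRs of 6.87 to 10.45%. None had an e-box within 100 bp of the summit, and their distances to the table's start site ranged from 28123 to 294869 bp. Ptprf, the gene of the receptor phosphatase LAR, had a CACGTT 1.5 bp from the summit. That summit lay only 1622 bp from a Ptprf start site in the annotation.

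Over all members, 7 of 28 peaks had an e-box within 100 bp of the summit (25%, 10.7 to 44.9), beside 22.7% of all peaks. In the flanks from 400 to 500 bp on either side, 3 of the 28 had one (10.7%, 2.27 to 28.2), beside 2.87% of all peaks. By class, 6 of the 21 BMAL1 only members had an e-box (28.6%, 11.3 to 52.2), beside 22.0% of all BMAL1 only peaks. Among the CLK only members it was 0 of 5 (interval up to 52.2%), beside 10.4%, and among the shared members 1 of 2, beside 59.2%. An e-box lay in 6 of 17 peaks at phosphatase genes (14.2 to 61.7%) and in 1 of 11 at kinase genes, that of Cdk4 (0.230 to 41.3%). Both intervals contain the share over all peaks, and by the BMAL1 summit Wee1 would be a further kinase site. A hexamer with at most 1 mismatch to the e-box lay within 100 bp in 20 of 28 (71.4%), beside 71.0% of all. The variant CACGTT, searched on both strands, lay within 100 bp of the summit in 5 members (17.9%, 6.06 to 36.9), beside 7.43% of all peaks. These were Ppp1r3c, Wee1, Dusp3, Ptprf and Mapk3. Each of these intervals contains the share over the corresponding peaks of the whole table.

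Peaks near a start site were few. Within 1000 bp lay 5 of 28 members (17.9%, 6.06 to 36.9), beside 16.5% of all peaks: Cdk4, Dusp12, Dusp3, Wee1 and Dusp7, in order of distance. Of these 5, 3 had an e-box within 100 bp of the summit, beside 50.3% of all peaks this close, and so had 4 of the 23 members further away (17.4%), beside 17.2% of all such peaks. More than 100000 bp from the start site lay 7 members (25%), beside 22.5% of all. None of the 7 had an e-box, where 7.31% of all peaks at this distance had one. Inside the assigned gene lay 10 members (35.7%, 18.6 to 55.9), beside 42.3% of all. The median distance was 44038 bp, against 24938 bp over all peaks. The median GC content within 100 bp of the summit was 50.7% (all peaks, 51.7%), and it was 61.7% for the 5 members near a start site. The nearest protein-coding start site of the annotation was that of the assigned gene for 24 of 28 members (85.7%), beside 86.7% of all peaks whose symbol is in the annotation. The exceptions were Pik3r1, Csnk1g3, the CLK only peak of Ppp3ca and the upstream peak of Dusp10.

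**Figure D4:**
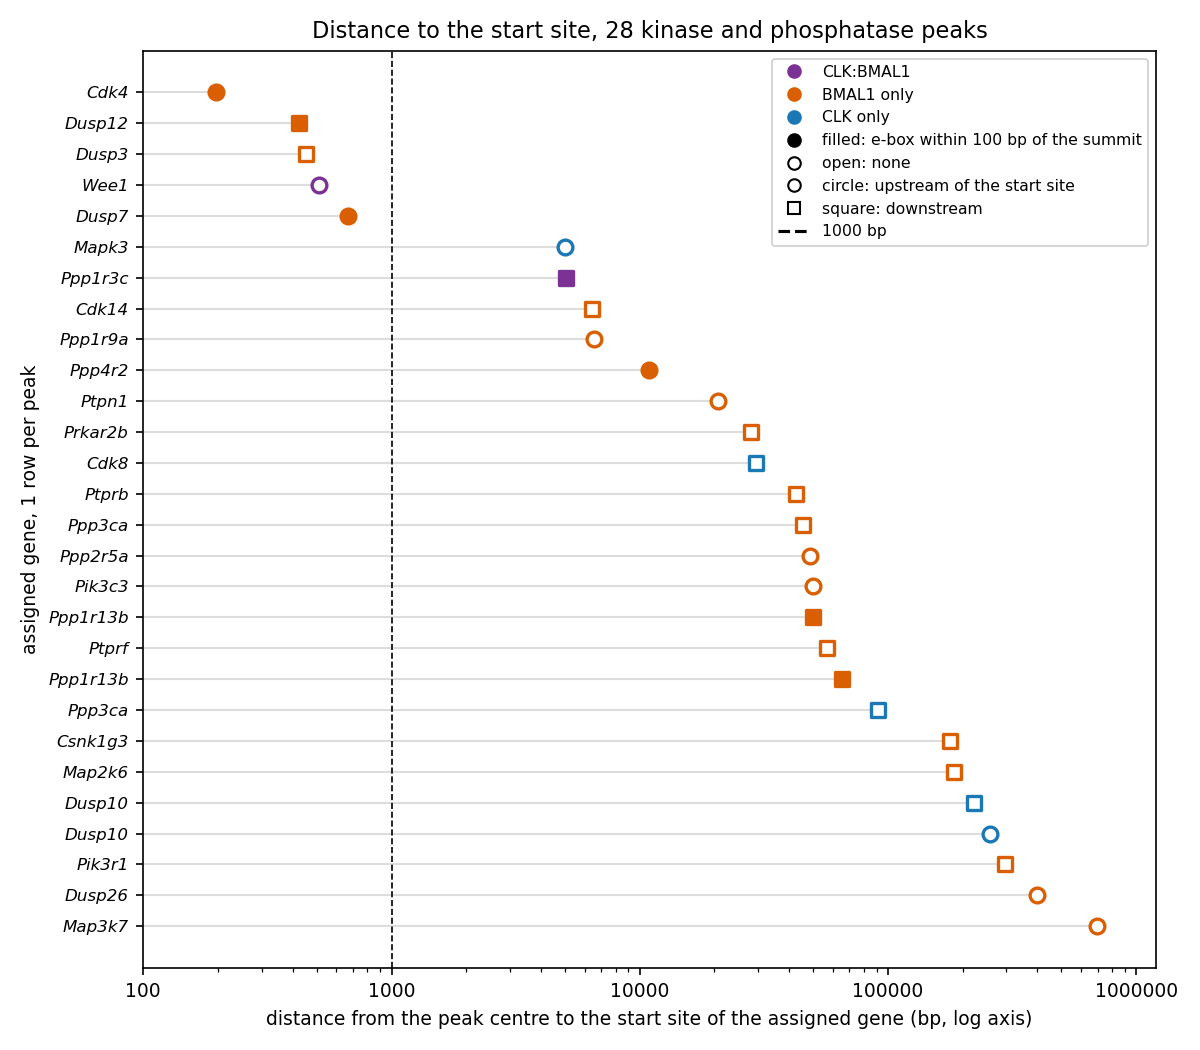
Distance from the peak centre to the start site of the assigned gene (x axis, bp, log) for each of the 28 peaks (y axis), coloured by class, filled where an e-box lies within 100 bp of the summit, circles upstream and squares downstream. The 5 peaks left of the dashed line at 1000 bp are those of Cdk4, Dusp12, Dusp3, Wee1 and Dusp7, and no peak beyond 100000 bp is filled.

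**Figure D5:**
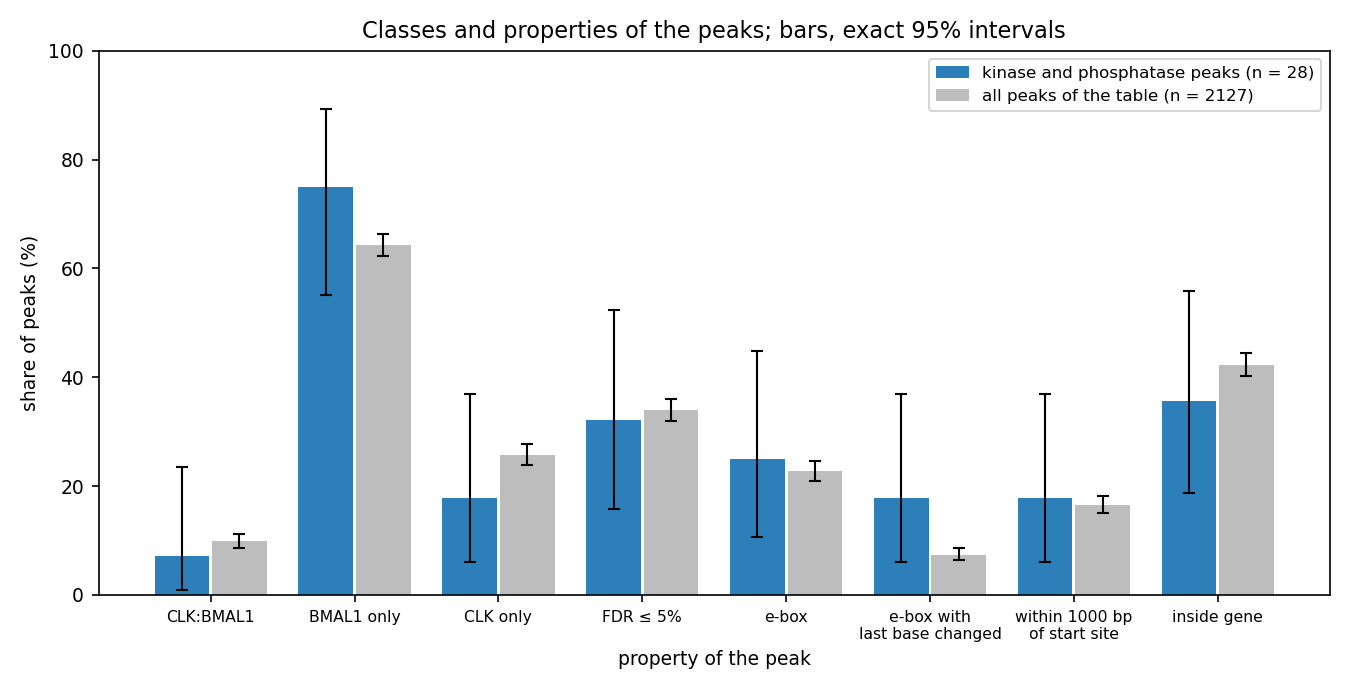
Share of peaks (y axis, percent) in each class or with each property (x axis) for the 28 kinase and phosphatase peaks and for all 2127 peaks, with exact 95% Clopper-Pearson intervals. Every interval of the members contains the share over all peaks.

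By definition the BMAL1 only and CLK only members overlap no peak of the other list. Within 50000 bp such a peak lay at 0 of 21 BMAL1 only members, beside 5.56% of all BMAL1 only peaks, and at 0 of 5 CLK only members, beside 12.6% of all CLK only peaks. The closest CLK peak to any of the 21 lay 53691 bp away, at Dusp3, and the closest BMAL1 peak to any of the 5 CLK only members 277689 bp away, at Ppp3ca. Whether CLK was bound at these places below the calling cutoff cannot be read from peak lists, which hold called peaks only.

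Among 37 genes of kinases and phosphatases known for acting on clock proteins or their targets, 3 had a peak under the listed name (8.11%, 1.70 to 21.9), beside the 6.70% of all protein-coding genes: Wee1, Mapk3 and Csnk1g3. Of these, Wee1 was already known as a clock target, and the Csnk1g3 peak lay 178596 bp from its start site. Mapk8 had its shared peak under the name jnk1. No peak was assigned to Csnk1d, Csnk1e, Csnk1a1 or the genes of casein kinase 2, whose products phosphorylate PER or BMAL1. The same held for Gsk3a, Gsk3b and Dyrk1a, and for the catalytic subunits of AMP-activated kinase, Prkaa1 and Prkaa2. The peak nearest to the start site of Csnk1d lay 392242 bp away, and that nearest to Csnk1e 93000 bp away. A summit lay within 50000 bp of a start site for 18.9% of the list, beside 13.7% of all protein-coding genes. Of 134 further kinase and phosphatase genes that the rule does not name, 14 (10.4%, 5.83 to 16.9) had a peak. A shared peak was assigned to 2 of these 14, Ppm1a, which encodes a metal-dependent phosphatase, and Rps6ka1, which encodes a ribosomal S6 kinase that acts downstream of ERK.

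The promoters were compared with the peaks. RefSeq promoter sequences (assembly GRCm38.p6, 250 bases before to 50 after the start) were matched by symbol for 18 of the 25 genes, all but Csnk1g3, Dusp26, Mapk3, Pik3c3, Ppp3ca, Ptprb and Wee1. CACGTG, which reads the same on both strands, was present in 5 of the 18 (27.8%, 9.69 to 53.5), beside 8.09% of 27025 genes. The 18 were included because each has a peak, whereas the 27025 were not chosen by binding. These shares therefore do not compare like sets, and the difference was not tested. The Cdk4 promoter held it 4 times, and the promoters of Cdk8, Ppp1r3c, Ppp1r9a and Prkar2b once each. Of these 5 genes only Cdk4 had its peak within 1000 bp of the start site. The peaks of Ppp1r3c and Ppp1r9a lay 5051 and 6568 bp away, and those of Prkar2b and Cdk8 lay 28123 and 29506 bp away.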

How the data were processed

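CLK and BMAL1 ChIP and Input libraries of the same liver extract were sequenced as 36 nt reads. The authors mapped reads to mm9 with Bowtie and kept uniquely mapped ones. MACS then compared each ChIP library with the Input. Per the file headers, its p-value cutoff was 1e-05, its effective genome size 1890000000 bp, its band width 80 and its model fold 5. The submitters' processing notes also name CASAVA 1.6. The deposited lists give, for each peak, the count of tags, the score (10 times the negative log10 of the p-value), the fold enrichment, a ratio of ChIP to local Input, and the FDR in percent, obtained by swapping ChIP and Input. A deposited table gives class, assigned gene and distance. Peaks within a gene carry that gene, and others the gene that starts closest. Total mapped tags were 37371047 (CLK), 28920754 (BMAL1) and 18846303 (Input).

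All 2127 table peaks were joined to the lists by position. Chromosome lengths of NCBIM37 contain every peak. Sequence came from NCBIM37, centred on the BMAL1 summit for BMAL1 only peaks and on the CLK summit otherwise, and features from GENCODE M1. Python 3.11.15, pandas 2.3.3 and scipy 1.17.1 were used. With 1 library per antibody no test was run: shares have exact 95% intervals, tag counts have exact Poisson intervals, and medians stand beside those of all peaks. Named in full were shared members, the 10 BMAL1 only and 10 CLK only members of highest score (5 CLK only exist), members with an e-box, genes with 2 peaks and listed clock kinases. The members, lists and rules were chosen with earlier results of these data known. The motif search and joins were tested on simulated data.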

Additional observations from a re-analysis of the deposited data

How the results depend on the processing

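Of 36 alternative values for 10 results, 30 moved by less than the main value's interval or range and 6 by more. Raising the minimum score to 100 left only 2 members (Cdk4 and Cdk8), so that 0% were CLK:BMAL1, 50% BMAL1 only and 50% CLK only, and 50% had an e-box. With an FDR of at most 5%, 9 members were left and 0% were CLK only. Allowing 1 mismatch put an e-box in 71.4% of the members. Alternatives added after the data were seen gave 28.6% with an e-box by the BMAL1 summit at shared peaks, since Wee1 then has one. Adding the 4 peaks listed under an older gene name gave 9.38% CLK:BMAL1 and 25% with an e-box, and taking the 39 peaks whose nearest protein-coding start site belongs to a matching gene gave 7.69% and 20.5%. No paired analysis was possible because each antibody has 1 library, and for the same reason no replicate could be left out. Depth limits single peaks: members held 15 to 266 tags, and most scores lay near the cutoff. Over 100000 bp, peak assignment rests on distance alone, and an annotated start site of another gene can lie nearer. At Map3k7 the start site of Gm11922 lay 48682 bp from the summit, and that of Map3k7 itself 694768 bp.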

Other observations

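Besides jnk1, 3 peaks were listed under an older name of a gene that the rule matches by its current symbol. Smek2 is now Ppp4r3b, the gene of a regulatory subunit of protein phosphatase 4, and had a BMAL1 only peak of 20 tags 968 bp from its start site (score 65.0, fold enrichment 6.76, FDR 3.78%). With Ppp4r2 it is the second subunit gene of that phosphatase with a BMAL1 only peak. The peak listed as mKIAA4044 (now Ptprm, a receptor tyrosine phosphatase) was BMAL1 only, with 16 tags and a score of 55.9. The peak listed as 1700106N22Rik (now Camkmt, which encodes a methyltransferase of calmodulin and no kinase) was CLK only, with 21 tags and a score of 51.0. None of the 3 had an e-box within 100 bp of its summit.

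A further 14 peaks lay nearest to the start site of a matching gene but were assigned to another transcript. The strongest was at Mapk6, the gene of the atypical MAP kinase ERK3. It was a BMAL1 only peak of 57 tags, assigned to an unnamed cDNA, 123 bp from the Mapk6 start site, with a score of 168, a fold enrichment of 9.40 and an FDR of 0%. Its score exceeded that of every BMAL1 member. It held no e-box within 100 bp of the summit, where GC content was 75.1%. The others of the 14 had scores of 52.4 to 88.4. These peaks were chosen after their values were seen, and no test was made on them.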
